A study of Mus musculus with 6 samples.

Results

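The genes described here are 10 members of the fibroblast growth factor (FGF) system in the mouse retina, taken from a table of gene counts by their symbols. They are the secreted ligands Fgf1, Fgf2 and Fgf9, the FGF homologous factors Fgf12, Fgf13 and Fgf14, the receptors Fgfr1, Fgfr2 and Fgfr3, and the receptor-like gene Fgfrl1. All 10 symbols were found among the 24062 genes of the table. Fgf2 was included because it is known as a survival factor that degenerating retinas induce, so its rise was looked for rather than come upon.

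Secreted FGFs bind receptor tyrosine kinases at the cell surface together with heparan sulphate, a sulphated sugar chain carried by proteoglycans. The bound receptor passes the signal through adaptor proteins to the RAS-ERK kinase cascade, which in turn induces its own inhibitors, such as the Sprouty proteins and the DUSP phosphatases. Fgf2, or basic FGF, protects photoreceptors when it is injected into degenerating retinas, and Müller cells, the radial glia that span the retina, are a known source of it. FGF homologous factors share the fold of the ligands but stay inside the cell, where they bind voltage-gated sodium channels of neurons.

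Retinas of C57Bl6/J wild-type mice (WT) were compared with those of rd10 mice, whose strain is also labelled C57Bl6/J, at postnatal day 30. In the rd10 line a germline missense mutation lies in Pde6b, the gene for a subunit of the phosphodiesterase of rods, and the rods degenerate after birth. The labels name no treatment in either group. Each group held 3 samples of 2 frozen retinas, and RNA of the whole tissue was sequenced with a strand-specific protocol. The study's title speaks of YAP and TEAD in reactive Müller cells. The labels do not say that samples came from separate animals, so the p-values measure only the spread between these samples.

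The WT libraries held 13573035 to 15818918 gene counts and the rd10 libraries 10923556 to 12171088. Values are given as CPM, the usual scaling of counts to a common library size, after adjustment of the library sizes by TMM, with the SD of 3 libraries per group, in the order WT-1, WT-4 and WT-23 and then Rd10-3, Rd10-4 and Rd10-5, the names used in the count table. Marker genes of the labelled tissue were present: all 18 rod, 17 Müller cell and 12 cone marker genes passed the filter on low counts, while the summed level of the lens markers stayed between 2.86 and 23.8 CPM and that of the blood markers between 1.90 and 4.91 CPM over the 6 libraries. Markers of the adjacent retinal pigment epithelium were present, with a sum of 382 to 411 CPM in WT and 244 to 399 CPM in rd10, and 3 of 9 tested (Rpe65, Rgr and Lrat) fell. All 18 rod markers fell, with their sum going from 117600 to 136600 CPM in WT to 24090 to 35100 CPM in rd10. In whole tissue, a change in the number of cells of a type and a change in RNA per cell cannot be told apart. Y-linked genes gave 2160 counts in WT-4, 1663 in Rd10-3 and 1801 in Rd10-5 but at most 1 count in WT-1, WT-23 and Rd10-4, so both groups mix libraries with and without them.

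Fgf2 and Fgfr1 were higher in rd10 retinas, and no other member passed the test. Of the 10 members, 9 passed the filter on low counts (Fgfr3 did not), and 2 of the 9 (22.2%) were called, that is, reached an adjusted p below 0.05 in the quasi-likelihood test of edgeR (Benjamini-Hochberg over 13905 genes). Across all genes tested, 14.4% were called by that rule, 7.12% higher and 7.32% lower in rd10. The libraries of the 2 groups did not overlap for 3 of the 9 tested members (33.3%), namely Fgf2, Fgfr1 and Fgfr2, against 35.7% of all genes tested, so the share of members whose groups were separate was near that of the background. The median log2 fold change of rd10 over WT was 0.22 for the tested members and -0.04 for all genes. DESeq2 also called 2 members, Fgf2 and Fgfr1.

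**Figure D1:**
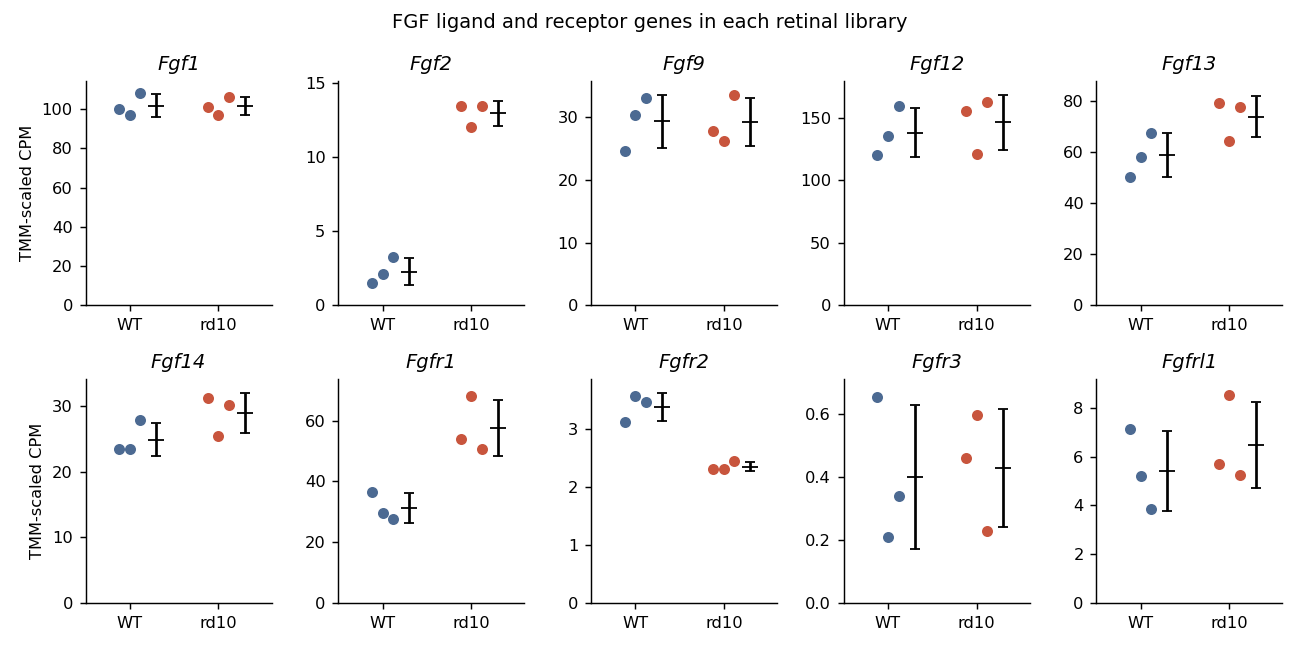
TMM-scaled CPM of the 10 FGF genes in each library, with blue points for WT, red points for rd10, and bars for the mean ± SD of 3 libraries; every vertical axis starts at 0 and has its own range. Points of the groups are apart for Fgf2, Fgfr1 and Fgfr2 and overlap for the other genes.

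Among the secreted ligands, Fgf2 (chromosome 3, 37348477 to 37410106, plus strand, GRCm38) was low in every WT library, with 18, 30 and 48 counts or 1.47, 2.09 and 3.26 CPM. In the rd10 libraries it had 175, 141 and 177 counts, or 13.4, 12.01 and 13.5 CPM. The lowest rd10 library thus lay far above the highest WT library, WT-23. The mean rose from 2.27 ± 0.91 to 13.0 ± 0.83 CPM. The log2 fold change was 2.50 ± 0.27 (SE; 95% interval 1.87 to 3.12) or 5.64-fold (edgeR, adjusted p = 0.00108). The WT counts behind this fold are small, and leaving out 1 library at a time gave log2 fold changes from 2.27 to 2.87.

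Exons of Fgf2 share 640 bases with Nudt6, a Nudix hydrolase gene transcribed from the opposite strand and known as the FGF2 antisense gene, in the GENCODE M21 annotation. The libraries were strand-specific, but whether the counting used strand is not stated in the sources used here, so reads from the shared stretch cannot be told apart. For Nudt6 itself the WT counts were 30, 25 and 25 and the rd10 counts 32, 26 and 40. Its log2 fold change was 0.40 ± 0.26 (edgeR, adjusted p = 0.347), and the values of its groups overlapped.

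Fgf1, acidic FGF, which can bind every FGF receptor, was the most abundant of the 3 secreted ligands per length. Its levels were 100, 96.8 and 108 CPM in WT and 101, 97.0 and 106 CPM in rd10, nearly the same range in both groups. The means were 101.8 ± 5.9 and 101.5 ± 4.6 CPM, with a log2 difference of -0.00496 ± 0.11 whose 95% interval ran from -0.25 to 0.24 (edgeR, adjusted p = 0.980). Fgf9 (chromosome 14, 58070671 to 58112854, plus strand), a ligand known for roles in the developing retina, had 24.6, 30.3 and 33.0 CPM in WT and 27.8, 26.2 and 33.5 CPM in rd10. Its log2 difference was -0.01 ± 0.16 with an interval from -0.38 to 0.36 (edgeR, adjusted p = 0.980), and its lowest and highest libraries in the groups were alike. The intervals leave room for changes of that size in either direction, wider for Fgf9 than for Fgf1.

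Per length, the homologous factors together were more abundant than the secreted ligands or the receptors. Fgf12 (chromosome 16, 28157783 to 28753243, minus strand) had 120, 135 and 159 CPM in WT and 156, 121 and 162 CPM in rd10, with WT-1 and Rd10-4 at the low ends of their groups. Its log2 difference was 0.08 ± 0.16, with an interval from -0.27 to 0.44 (edgeR, adjusted p = 0.760). Fgf13 (chromosome X, 59062139 to 59585572, minus strand) had 50.5, 58.4 and 67.7 CPM in WT and 79.5, 64.7 and 78.0 CPM in rd10. Only Rd10-4 fell within the WT range. The means were 58.9 ± 8.6 and 74.1 ± 8.2 CPM, and the log2 difference of 0.33 ± 0.15 had an interval from -0.01 to 0.67 (edgeR, adjusted p = 0.175).

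Fgf14 (chromosome 14, 123974441 to 124677686, minus strand), in which mutations cause a spinocerebellar ataxia in people, had 23.5, 23.4 and 27.8 CPM in WT and 31.2, 25.5 and 30.2 CPM in rd10. Here too Rd10-4 was the low rd10 library and the only rd10 value within the WT range. The log2 difference was 0.22 ± 0.14 with an interval from -0.11 to 0.55 (edgeR, adjusted p = 0.340). Fgf11, the fourth homologous factor and not among the 10 members, had means of 72.3 ± 10.2 and 83.1 ± 7.5 CPM and a log2 difference of 0.20 ± 0.14 (edgeR, adjusted p = 0.368). None of the 4 homologous factors passed the test, although the log2 difference was above 0 for each of them with TMM scaling. With libraries scaled to inner neuron markers the values of Fgf11, Fgf12 and Fgf14 were -0.07, -0.19 and -0.05, while Fgf13 stayed above 0 at 0.05. With libraries scaled to Müller cell markers Fgf11 to Fgf14 had -0.57, -0.69, -0.44 and -0.55.

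Among the receptors, Fgfr1 (chromosome 8, 25518759 to 25575718, plus strand) was the most abundant per length. The WT counts were 448, 423 and 406 and the rd10 counts 701, 800 and 666, which is 36.6, 29.5 and 27.5 CPM against 53.8, 68.2 and 50.7 CPM. Every rd10 library lay above every WT library, with Rd10-4 the highest. The mean rose from 31.2 ± 4.8 to 57.5 ± 9.3 CPM. The log2 fold change was 0.88 ± 0.17 (95% interval 0.50 to 1.27) or 1.84-fold (edgeR, adjusted p = 0.0108). Without WT-4, a fit that called 6.74% of all genes, the log2 fold change was 0.86 and the call was lost (edgeR, adjusted p = 0.0564). With libraries scaled to Müller cell markers it was 0.10 and the call was lost as well (adjusted p = 0.546).

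Fgfr2 (chromosome 7, 130162451 to 130266808, minus strand), whose splice forms bind different sets of ligands, was scarce: its WT counts were 38, 51 and 51 and its rd10 counts 30, 27 and 32. These are 3.11, 3.55 and 3.46 CPM against 2.30, 2.30 and 2.43 CPM, and every rd10 library lay below every WT library. The log2 difference of -0.52 ± 0.20 (95% interval -0.99 to -0.06) did not pass the adjusted threshold (edgeR, adjusted p = 0.127). In the GENCODE M21 annotation Fgfr2 runs on to position 133123350, far beyond its RefSeq end, and shares 314 exon bases with Ctbp2 on the same strand. How the counting treated reads from those bases is not stated in the sources used here.

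Fgfr3 (chromosome 5, 33721724 to 33737068, plus strand), a receptor of cartilage and glial precursors, was close to the detection limit, at 8, 3 and 5 counts in the WT and 6, 7 and 3 in the rd10 libraries. The filter on low counts left it out of the test, and a fit without that filter gave a log2 difference of 0.14 ± 0.61 (edgeR, adjusted p = 0.917). Of its 6 values, 2 stood at 3 counts, the limit that a count of 0 allows, which corresponds to 0.203 to 0.256 CPM in these libraries. Fgfr4, the remaining kinase receptor and not among the 10 members, had 11, 11 and 7 counts against 12, 6 and 9, was left out by the same filter and gave 0.03 ± 0.44 without it (edgeR, adjusted p = 0.974). Fgfrl1 (chromosome 5, 108694229 to 108706950, plus strand), a receptor-like protein that lacks the kinase domain, had 7.11, 5.22 and 3.86 CPM in WT and 5.68, 8.52 and 5.25 CPM in rd10. Its groups overlapped, and the log2 difference of 0.27 ± 0.29 had a wide interval from -0.39 to 0.93 (edgeR, adjusted p = 0.579).

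Per length of all exons, on the RPKM scale (TMM-scaled CPM divided by exon length in kilobases), the mean WT levels ran in the order Fgf12 (22.3), Fgf1 (18.6), Fgf13 (14.7), Fgf9 (6.31), Fgf14 (5.95), Fgfr1 (3.16), Fgfrl1 (1.94), Fgf2 (0.335), Fgfr2 (0.327) and Fgfr3 (0.056). Neighbours in this order whose libraries overlapped were Fgf12 and Fgf1, Fgf9 and Fgf14, and Fgf2 and Fgfr2. In rd10 the order was Fgf12 (23.6), Fgf1 (18.6), Fgf13 (18.4), Fgf14 (6.93), Fgf9 (6.27), Fgfr1 (5.83), Fgfrl1 (2.33), Fgf2 (1.91), Fgfr2 (0.227) and Fgfr3 (0.0598). There the overlapping neighbours were Fgf1 and Fgf13, Fgf14 and Fgf9, Fgf9 and Fgfr1, and Fgfrl1 and Fgf2. Fgf2 thus stood beside Fgfr2 in WT and beside Fgfrl1 in rd10, and it remained well below Fgf1 in both groups. This order rests on the length of all exons and was not recomputed with another length. The longest transcript shortens genes by unlike amounts, to 5041 of 9875 bases for Fgfr1 and 3593 of 4649 bases for Fgf9. The places of genes with close levels can therefore change with the length used.

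Within a class, the share of each gene in the summed per-length level does not depend on how libraries are scaled. Fgfr1 took 53.7, 54.7 and 59.4% of the receptor sum (Fgfr1 to Fgfr4 and Fgfrl1) in WT and 67.8, 66.3 and 68.6% in rd10. The groups did not overlap, and the means were 55.9 ± 3.1% and 67.6 ± 1.2% (SD, n = 3). The share of Fgfr2 was 5.93 ± 1.43% in WT and 2.69 ± 0.51% in rd10, and that of Fgfrl1 was 33.7 ± 3.8% and 26.7 ± 2.4%, also without overlap of the groups. Shares of a class sum to 100%, so a larger share of Fgfr1 makes the others smaller, and no test was run on them.

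Fgf2 took 0.909, 1.26 and 1.75% of the sum of Fgf1, Fgf2 and Fgf9 in WT and 7.47, 7.04 and 6.94% in rd10. Fgf1 kept the largest part, with 73.8 ± 2.7% in WT and 69.5 ± 1.4% in rd10. Among the homologous factors, Fgf12 went from 33.4 ± 0.9% to 30.9 ± 1.2% and Fgf13 from 21.1, 22.9 and 21.9% to 24.7, 24.2 and 23.6%, both without overlap between groups. Fgf14 had 8.96 ± 0.40% and 9.09 ± 0.28%, with overlapping groups. With the longest transcript in place of all exons the levels of the shares were different but their directions were not: Fgfr1 had 64.8% in WT and 76.0% in rd10, and Fgf2 had 1.10% and 6.07%.

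**Figure D2:**
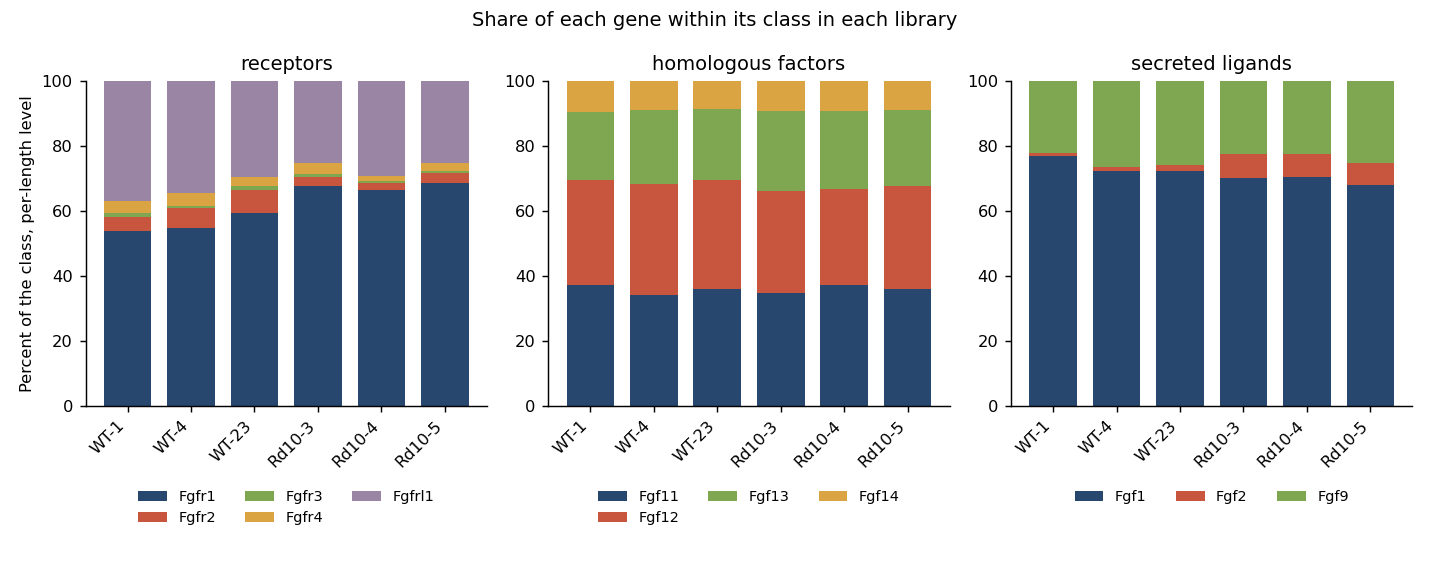
Stacked bars show the percent that each gene takes of the summed per-length level of its class in each of the 6 libraries, for receptors (Fgfr1 to Fgfr4 and Fgfrl1), homologous factors (Fgf11 to Fgf14) and the 3 secreted ligands. The Fgfr1 part of the receptor bars is larger in the rd10 libraries (66.3 to 68.6%) than in the WT libraries (53.7 to 59.4%), and the Fgf2 part of the ligand bars is visible mainly in rd10.

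The fold changes depend on how libraries are scaled. The median log2 fold change over all tested genes shifted from its TMM value by 0.24 with library size alone, with scaling to bipolar, amacrine and ganglion cell markers (inner neuron scaling) by -0.27 and with scaling to Müller cell markers by -0.77. Of all calls, 49.3% were higher in rd10 with TMM, 81.2% with library size alone, 18.6% with inner neuron scaling and 3.46% with Müller cell scaling. In the same order, the calls made up 14.4, 21.9, 23.9 and 77% of all genes tested. Fgf2 was called higher under each of these scalings, with its lowest log2 fold change, 1.72, under Müller cell scaling. Fgfr1 was called under all of them except Müller cell scaling. Fgf1 had -0.27 under inner neuron scaling and -0.78 under Müller cell scaling, where it was called lower (edgeR, adjusted p = 0.00127). Fgf9 had -0.28 and -0.78, the latter again called lower (edgeR, adjusted p = 0.00556). Fgf13 was called higher with library size alone (0.57, edgeR, adjusted p = 0.0349) and had a value of -0.44 with Müller cell scaling (adjusted p = 0.0469). Fgfr2 had -0.79 under inner neuron scaling (edgeR, adjusted p = 0.037) and -1.30 under Müller cell scaling (adjusted p = 0.00102), so that it was called lower under both.

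**Figure D3:**
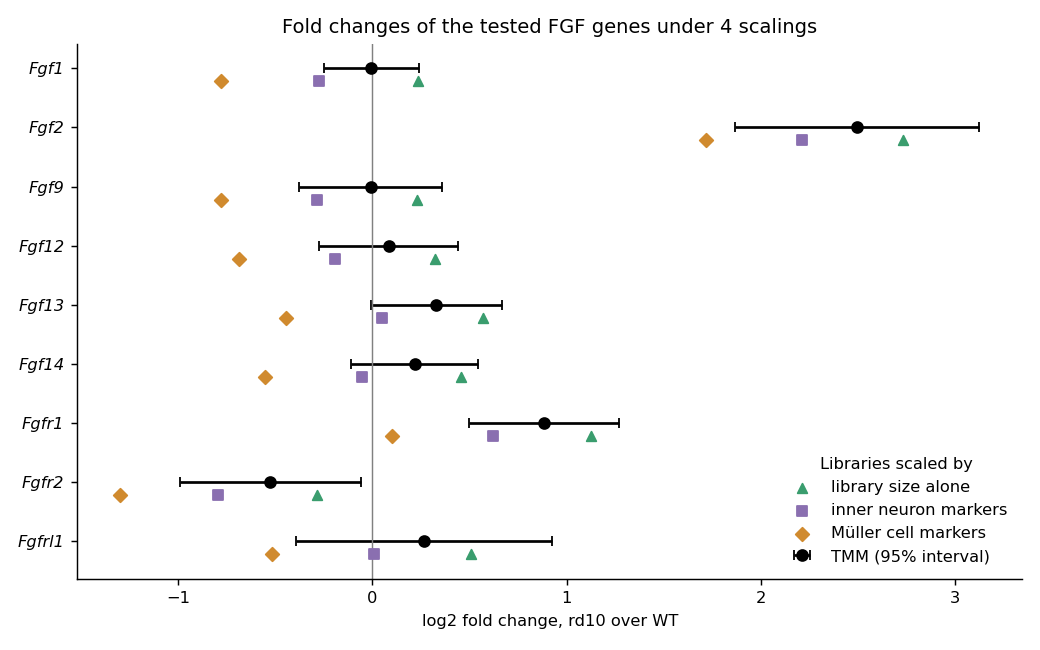
Log2 fold changes of rd10 over WT for the 9 tested members, with the TMM value and its 95% interval in black and the values under library size alone (triangles), inner neuron scaling (squares) and Müller cell scaling (diamonds). Every symbol of Fgf2 lies to the right of 1.7, those of Fgfr1 lie between 0.10 and 1.12, and those of Fgfr2 lie to the left of 0.

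The Müller cell and gliosis genes themselves were higher in rd10. Of 17 Müller cell markers, 12 rose and none fell, with a median log2 fold change of 0.70 and a summed level of 9653 to 10600 CPM in WT and 14880 to 17880 CPM in rd10. Of 15 genes of reactive gliosis, the response of glia to injury, 14 rose and none fell, with a median of 2.51 and a sum of 278 to 388 CPM in WT and 1289 to 1692 CPM in rd10; Vim is in both lists. All 16 microglia and macrophage markers rose (median 2.28, sum 82.5 to 108 CPM in WT and 310 to 438 CPM in rd10). Of 12 vascular and mural cell markers, 2 rose (median 0.08, sum 520 to 558 CPM and 826 to 897 CPM), and of 5 tested astrocyte markers, 2 rose (sum 348 to 461 CPM and 381 to 393 CPM). No marker of the Müller cell, gliosis, microglia, vascular or astrocyte lists was at 0 in every library. The part of these cell types in the rises of Fgf2 and Fgfr1 was not tested.

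Set against the mean log2 CPM of the Müller cell markers in the same library, Fgf2 lay at -7.27, -6.72 and -6.12 in WT and at -4.95, -5.18 and -4.82 in rd10. The groups were apart, with a log2 difference of 1.73 ± 0.35 (SE; exact two-sided permutation p = 0.1, the smallest that 3 against 3 libraries can give, 0.15 after adjustment over 6 comparisons). Against the inner neuron markers the difference was 2.24 ± 0.39 (exact permutation p = 0.1, adjusted 0.15). Those markers themselves leaned higher in rd10 with TMM, with median log2 fold changes of 0.27 (bipolar), 0.22 (amacrine) and 0.26 (ganglion cell). Called higher were 4 of 14, 0 of 11 and 2 of 12 tested, with Isl1 in both the first and the last list, and none was called lower. Against the gliosis genes Fgf2 lay at -1.83, -0.996 and -0.811 in WT and at -1.26, -1.72 and -1.15 in rd10. These groups overlapped, and the difference was -0.16 ± 0.36 (exact permutation p = 0.6, adjusted 0.6). Relative to general Müller cell markers every rd10 library thus lay above every WT library. Relative to the gliosis genes the SE leaves room for a change in either direction.

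Fgfr1, a comparison chosen after its values were seen, gave another pattern. Relative to the Müller cell markers it lay at -2.77, -3.0 and -3.1 in WT and at -2.96, -2.69 and -2.92 in rd10, with overlapping groups and a difference of 0.10 ± 0.13 (exact permutation p = 0.5, adjusted 0.6). Relative to the gliosis genes it was lower in every rd10 library, by -1.79 ± 0.16 (exact permutation p = 0.1, adjusted 0.15). Relative to the inner neuron markers it was higher in every rd10 library, by 0.61 ± 0.12 (exact permutation p = 0.1, adjusted 0.15).

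**Figure D4:**
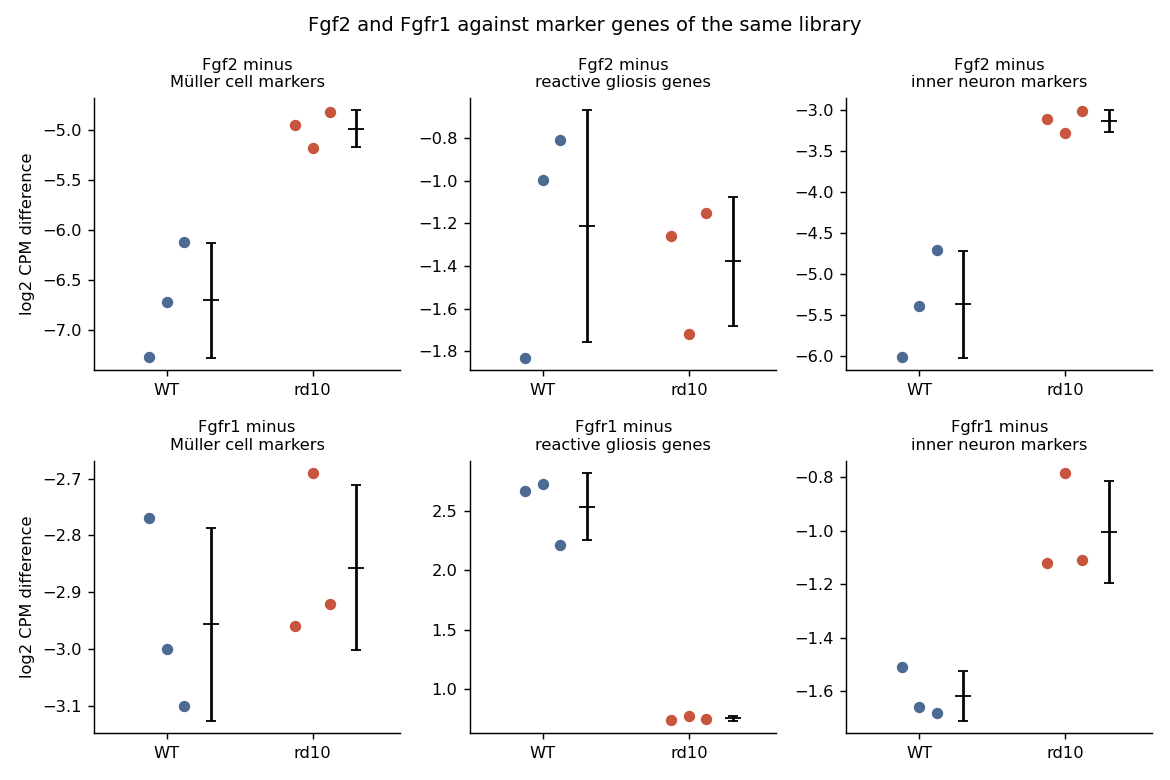
Log2 CPM of Fgf2 (top) and Fgfr1 (bottom) minus the mean log2 CPM of 17 Müller cell markers, 15 gliosis genes or 36 inner neuron markers in the same library, with mean ± SD bars of 3 libraries; each axis has its own range. Fgf2 is apart between groups against Müller cell and inner neuron markers and overlaps against gliosis genes, whereas Fgfr1 overlaps against Müller cell markers.

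Libraries with and without Y-linked counts were also compared within their kind, with 1 or 2 libraries per group and so no test, a split chosen after these counts were seen. The log2 difference of Fgf2 was 2.60 among the libraries with Y-linked counts and 2.37 among those without, and that of Fgfr1 was 0.82 and 1.10. Fgfr2 gave -0.56 and -0.48. The groups of these 3 genes did not overlap, so any split of the libraries gives the same direction, and this split adds nothing on it. The sign differed between the kinds for Fgf1 (0.10 and -0.10), Fgf9 (0.01 and -0.12), Fgf12 (0.23 and -0.19) and Fgf14 (0.39 and -0.00396), none of which passed the test.

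In the authors' deposited table of selected genes, which gives 1 FPKM value per group, Fgf2 had 1.4 in WT and 8.2 in rd10 with a log2 fold change of 2.49 and a p of 1.97e-17. Fgfr1 had 17.8 and 32.7 in the authors' deposited table, with a log2 fold change of 0.88 and a p of 8.7e-06. The other members were not among the 3427 genes of the authors' deposited table. The FPKM values of the authors' deposited table were a median of 1.81 times the RPKM values given above across 2992 genes, so levels on the 2 scales should not be mixed. The factor was not the same for each gene. In WT, Fgf2 had 0.335 RPKM against 1.4 FPKM and Fgfr1 3.16 RPKM against 17.8 FPKM, gaps wider than that median. Both genes thus stood lower against other genes on the RPKM scale.

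The genes whose log2 CPM followed Fgf2 most closely over the 6 libraries were Slc1a1, Sorcs1, Phactr1, Cp and Ctsc. The ranking held 10918 tested genes that averaged 5 CPM or more, after predicted genes and those with clone or accession names were left out. Slc1a1, a neuronal glutamate transporter, had a Pearson r of 0.9997 and rose by 0.53 ± 0.11 on the log2 scale (edgeR, adjusted p = 0.0144). Sorcs1, a sorting receptor, had an r of 0.9988 and rose by 0.69 ± 0.12, and Cp, the copper-carrying ferroxidase ceruloplasmin, had an r of 0.9982 and rose by 1.40 ± 0.16. Ctsc, a lysosomal protease, had an r of 0.9961 and rose by 0.90 ± 0.15. Phactr1, a phosphatase and actin regulator, had an r of 0.9983 although its log2 difference of 0.16 ± 0.10 did not pass the test (edgeR, adjusted p = 0.288). These libraries fall into 2 groups, and 714 genes (6.54%) had an r above 0.9, so the values rank genes and carry no p.

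The rest of the pathway was described by 9 lists that hold 115 genes of the count table, of which 95 were tested. Of these, 14 (14.7%) were called, 8 higher and 6 lower, close to the 14.4% of all genes with TMM, and their median log2 fold change was 0.10. Without Rd10-3 the number called was 6, without WT-4 it was 7 and without Rd10-4 it was 8. In these fits 6.19, 7.29 and 8.25% of the pathway genes were called, near the 6.26, 6.74 and 8.66% of all genes. Calls lost below without WT-4 or an rd10 library thus belong to fits with fewer calls over all genes (9.33% without Rd10-5). The fit without WT-1 called 20.8% of the pathway genes, near its 22.8% of all genes. Calls gained below without WT-1 thus belong to a fit with more calls over all genes. Library size alone gave 29 calls, of which 26 were higher. With inner neuron scaling 14 were called, 4 higher and 10 lower. Library size alone thus called 30.5% of the pathway genes against 21.9% of all genes, and inner neuron scaling 14.7% against 23.9%. Whether the pathway was called more or less often than other genes, and in which direction, moved with the scaling. Y-linked counts as a covariate (10.2% of all genes called) cost Spry2 its call (edgeR, adjusted p = 0.0703). The same held for Rps6ka2 (0.0581), Hs3st1 (0.0666), Il17rd (0.0551) and Egr1 (0.0951). A test against a fold of 1.2 (9.24% of all genes called) lost Gpc4 (0.085), Hs3st1 (0.0762), Il17rd (0.0774), Rps6ka2 (0.0747) and Spry2 (0.0824).

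Of the other 15 secreted ligands, 5 had no count in any library and 2 were expressed enough to be tested. Fgf10 had 4.55 ± 1.25 CPM in WT and 5.60 ± 0.50 CPM in rd10 (log2 difference 0.29 ± 0.24, edgeR, adjusted p = 0.448), and Fgf18 had 1.12 ± 0.15 and 1.051 ± 0.11 CPM (-0.08 ± 0.28, adjusted p = 0.889). The groups overlapped for both. The co-receptor Kl (0.17 ± 0.20, edgeR, adjusted p = 0.618) and the FGF carrier Fgfbp3 (-0.36 ± 0.22, adjusted p = 0.305) did not pass the test.

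Genes of heparan sulphate, the co-receptor of the ligands, changed in both directions. Among 13 proteoglycans 2 rose and none fell (median 0.11). The number higher was 6 without WT-1, a fit that called 22.8% of all genes against 14.4% in the main fit. It was 1 when WT-4 or any rd10 library was left out. The fit without WT-23 gave 2 higher and 1 lower, library size alone gave 4 higher, and inner neuron scaling gave 1 higher and 2 lower. Gpc3, a glypican, was at 6.30, 6.13 and 11.4 CPM in WT and at 23.3, 32.9 and 24.7 CPM in rd10. The log2 fold change was 1.76 ± 0.27 (edgeR, adjusted p = 0.00452). Gpc4, another glypican, rose by 0.98 ± 0.27 (edgeR, adjusted p = 0.0466), a call lost without WT-4 (adjusted p = 0.0887), Rd10-3 (0.156), Rd10-4 (0.0994) or Rd10-5 (0.112) and under both inner neuron scaling (0.0866) and Müller cell scaling (0.483).

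Of 22 heparan sulphate enzymes, 3 rose and 2 fell (median 0.07). Sulf1, an extracellular sulphatase that removes 6-O-sulphate from the chains and thereby dampens FGF signalling, went from 96.7, 110 and 117 CPM in WT to 254, 251 and 243 CPM in rd10. Its log2 fold change was 1.21 ± 0.11 (edgeR, adjusted p = 0.000693), and the groups were far apart. Sulf2, the related sulphatase, rose by 0.88 ± 0.19 (edgeR, adjusted p = 0.019), a call lost without WT-4 (0.0829), Rd10-3 (0.0695) or Rd10-4 (0.0602) and under Müller cell scaling (0.575). Hs3st1, a 3-O-sulphotransferase, rose by 0.75 ± 0.19 (edgeR, adjusted p = 0.0326), a call lost without WT-4 (0.0733), WT-23 (0.0672), Rd10-3 (0.135) or Rd10-4 (0.114) and under inner neuron scaling (0.0917), and its value was -0.03 under Müller cell scaling (0.873). Ext1, a polymerase that builds the chains, went from 82.3, 87.6 and 91.3 CPM to 42.9, 41.7 and 44.3 CPM, a fall of -1.02 ± 0.11 (edgeR, adjusted p = 0.000967). Hs3st3b1, another 3-O-sulphotransferase, went from 54.5 ± 14.1 to 21.2 ± 3.7 CPM (-1.36 ± 0.21, edgeR, adjusted p = 0.00501). Without WT-4, Rd10-3 or Rd10-4 the list had 3 called genes, 1 higher and 2 lower, and with library size alone 8, 6 of them higher. The genes that moved are known as enzymes that build, sulphate and trim the chains.

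Of 24 receptor adaptors and RAS-ERK genes, which act inside the cell, 1 rose and 1 fell (median 0.04). In the fit without WT-1, which called 22.8% of all genes, 4 were higher and 2 lower. Without Rd10-3 none was called by edgeR, and without WT-4 or Rd10-4 1 was higher. Library size alone gave 6 higher, and inner neuron scaling gave 2 lower. Gab1, a docking protein, rose from 29.4 ± 1.7 to 45.8 ± 2.6 CPM (0.64 ± 0.12, edgeR, adjusted p = 0.00974). Its call was lost without Rd10-3 (edgeR, adjusted p = 0.0665) and under inner neuron scaling (0.104), and its value was -0.14 under Müller cell scaling (0.383). Rps6ka2, a kinase downstream of ERK, fell from 282 ± 21 to 195 ± 16 CPM (-0.53 ± 0.11, edgeR, adjusted p = 0.0192), a call lost with library size alone (-0.29, adjusted p = 0.105) and without WT-4 (0.0733), Rd10-3 (0.111) or Rd10-4 (0.0587).

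Of 19 tested feedback and target genes of FGF and ERK, 2 rose and 2 fell (median 0.27). Egr1, an immediate early transcription factor, had 31.6, 14.4 and 12.3 CPM in WT and 62.2, 70.0 and 301 CPM in rd10, with Rd10-5 far above the other libraries. Its log2 fold change was 2.90 ± 0.67 (edgeR, adjusted p = 0.0248) and 1.77 without Rd10-5 (adjusted p = 0.03). The call was lost without WT-1 (0.088), WT-4 (0.11) or WT-23 (0.144). It was also lost with no filter (0.0595), with the GC trend removed (0.0767) and with Y-linked counts as a covariate (0.0951). Of these fits, those without WT-1 and with the GC trend removed called more of all genes than the main fit (22.8 and 32.7%). Il17rd, a membrane inhibitor of FGF receptors, rose by 0.88 ± 0.23 (edgeR, adjusted p = 0.0388), a call kept without WT-23 but lost without each other library (0.052 to 0.152) and under inner neuron (0.118) and Müller cell scaling (0.09, adjusted p = 0.725). The ERK phosphatase gene Dusp4 fell from 57.7 ± 2.6 to 38.1 ± 0.8 CPM (-0.60 ± 0.11, edgeR, adjusted p = 0.00919), a call lost with library size alone (-0.36, adjusted p = 0.0526) and without Rd10-3 (0.0637). Spry2, a Sprouty inhibitor, fell from 55.1 ± 5.9 to 37.1 ± 3.5 CPM (-0.57 ± 0.13, edgeR, adjusted p = 0.0258), a call lost with library size alone (-0.33, adjusted p = 0.119) and without WT-4 (0.0787) or any 1 of the rd10 libraries (0.0691 to 0.101). The balance of the list depended on the setting: library size alone gave 7 higher and none lower, inner neuron scaling 1 higher and 2 lower. The fit without WT-1 gave 2 lower and none higher, that without WT-4 1 lower and none higher, that without Rd10-3 1 higher and none lower, and those without Rd10-4 or Rd10-5 1 in each direction.

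Of 12 tested partners of the homologous factors, sodium channel subunits and the scaffold gene Mapk8ip2, 1 fell and none rose (median 0.10), while library size alone gave 3 higher and 1 lower. Scn4a, known as the sodium channel of skeletal muscle, went from 33.0, 40.7 and 30.3 CPM in WT to 7.83, 8.01 and 10.6 CPM in rd10, a log2 fold change of -1.98 ± 0.18 (edgeR, adjusted p = 0.000691). The summed level of the list was 685 to 732 CPM in WT and 760 to 769 CPM in rd10.

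**Figure D5:**
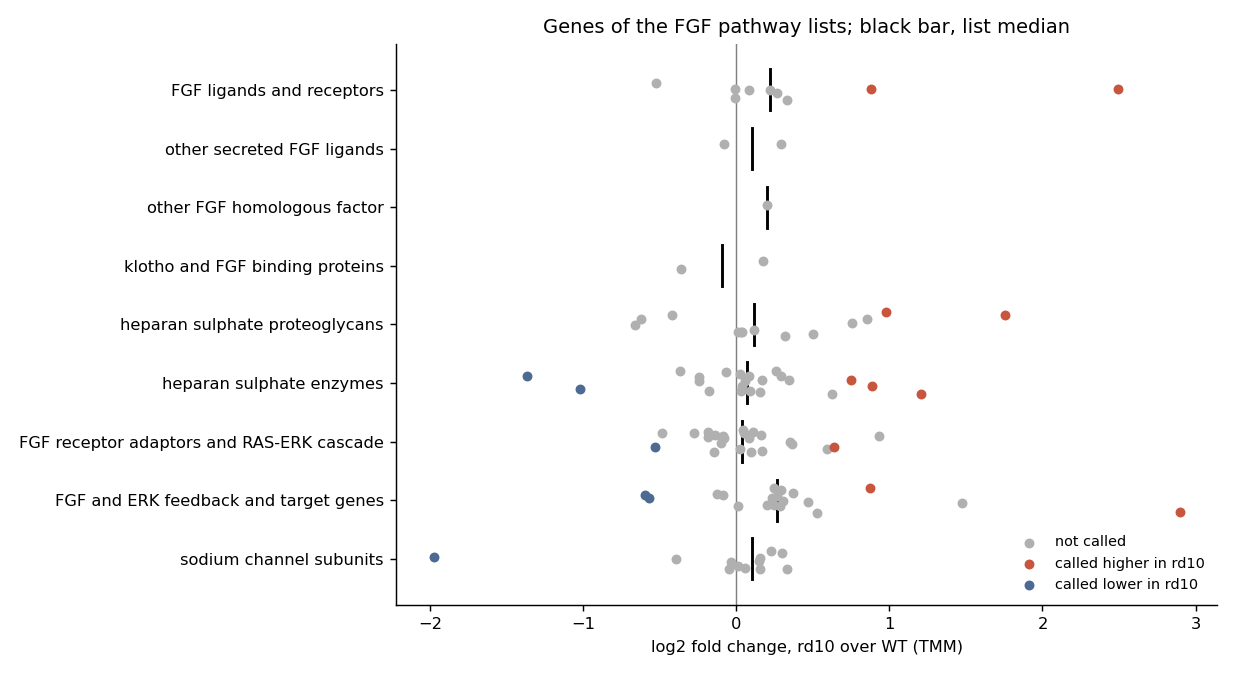
Each point is the log2 fold change of rd10 over WT (TMM) of a tested gene of the FGF members or of a pathway list, red where called higher, blue where called lower and grey where not called; black bars are list medians. Fgf2 and Egr1 lie farthest to the right, Scn4a farthest to the left, and most genes of each list lie near 0.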

How the data were processed

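Members and lists were chosen with earlier results of these data known. The authors deposited whole-number counts per gene, not normalized. The submitters' processing notes name TopHat2 2.1.0, HTSeq, edgeR and mm10, without their roles, and neither the annotation nor the strand setting of the counting is stated in the sources used here. The column names gave the group of each library. For selected genes the authors also deposited FPKM values (1 for each group), log2 fold changes and p-values, per the file headers, with no statement of adjustment. A further deposited gene selection was not used here.

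Counts were filtered with filterByExpr, scaled by TMM and fitted with edgeR 4.0.16 in R 4.3.3 (robust quasi-likelihood, genotype only, two-sided), after tests on simulated data, with Benjamini-Hochberg adjustment over 13905 genes and a threshold of 0.05. Errors are standard errors; 95% intervals use the t quantile of the fit. Relative levels used log2 CPM with a prior count of 2 and exact permutation tests (scipy 1.17.1). Exon lengths and overlaps came from GENCODE M21 (94.5% of symbols matched), positions from RefSeq (GRCm38.p6). Pairs of libraries of a group differed by a chi-square of 7.36 to 57.8 per degree of freedom, more than sampling noise, so none was treated as a copy. The floor of 3 counts covers counting error only. Named pathway genes were at most 3 called genes in a list, taken by p, or in lists without a call the 2 genes with the highest mean; Sulf2, Hs3st1 and Il17rd complete the counts. Alternatives were RLE, upper quartile, library size, inner neuron and Müller cell scaling, TMM without rod and cone markers, DESeq2 1.42.0, limma voom (limma 3.58.1), no filter, a minimum mean of 5 CPM, a test against a fold of 1.2, removal of a GC trend, Y-linked counts as a covariate and each library left out.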

Additional observations from a re-analysis of the deposited data

How the results depend on the processing

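Fgf2 kept its direction and call in all 19 alternatives (log2 fold change 1.72 to 2.87, adjusted p 5.88e-15 to 0.0121) and Fgfr1 in 17 (0.10 to 1.12 over all 19), the exceptions being Müller cell scaling and the fit without WT-4. The number of members called was 2, against 7 with Müller cell scaling (Fgf2 higher; Fgf1, Fgf9, Fgf12, Fgf13, Fgf14 and Fgfr2 lower), 4 with the GC trend removed (adding Fgf13 at 0.39 and Fgf14 at 0.34), 3 with library size alone, 3 with inner neuron scaling and 1 to 2 when a library was left out. Of all genes tested, 14.4% were called in the main fit, 77% with Müller cell scaling and 32.7% with the GC trend removed. The share was 21.9% with library size alone, 23.9% with inner neuron scaling and 6.26 to 22.8% with a library left out. The settings with 3 or more members called thus also called more of all genes than the main fit. With a library left out the 2 numbers did not move together. The fit without WT-1 called 22.8% of all genes and 2 members. Without Rd10-3 these were 6.26% and 2 members, and without WT-4 they were 6.74% and 1 member. The cause of the shifts was not tested. Fgf1 and Fgf9, at nearly no difference, turned positive with RLE factors (0.0122 and 0.00876), upper quartile factors (0.0901 and 0.0862), library size alone (0.234 and 0.229), DESeq2 (0.0122 and 0.00861), no filter (0.0246 and 0.0208), a mean of at least 5 CPM (0.0183 and 0.0163) and the GC trend removed (0.0423 and 0.114), while inner neuron scaling gave -0.275 and -0.283 and Müller cell scaling -0.777 and -0.779; they ranged from -0.0402 to 0.0626 and from -0.121 to 0.105 with a library left out. Inner neuron scaling turned Fgf12 (-0.192) and Fgf14 (-0.0543), and Müller cell scaling turned Fgf12 (-0.686), Fgf13 (-0.443), Fgf14 (-0.553) and Fgfrl1 (-0.513). Without 1 library Fgf12 ranged from -0.00998 to 0.218, and Fgf2 relative to gliosis genes from -0.472 to 0.0366 (0.0366 without WT-23, 0.00761 without Rd10-4). Pathway genes called numbered 14, against 29 with library size alone and 6 to 20 with a library left out (6.19 to 20.8%, against 6.26 to 22.8% of all genes). Over all genes tested, 2008 were called, against 3043 with library size alone, 3322 with inner neuron scaling, 10709 with Müller cell scaling, 4550 with the GC trend removed, 1285 against a fold of 1.2 and 885 to 3214 with a library left out.

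No paired analysis was possible because the column names of the count table do not carry the replicate numbers of the sample titles as a set and share only 1 number between the groups. Fgfr3 and Fgfr4, at 12 counts or fewer, were left out by filterByExpr, Fgfr2 was left out by the filter at a mean of 5 CPM, and no interaction was in the design.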
